A study of Arabidopsis thaliana with 12 samples.

Results

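The response of wild-type Arabidopsis thaliana roots to the synthetic cytokinin benzyladenine (BA) was measured as the difference between 3 RNA-seq libraries from BA-treated roots and 3 from vehicle-treated roots. WT plants (Col-0) were 10 days old, had grown vertically on half-strength MS medium with phytogel in 24 h light at 22 °C, and were shaken gently as whole seedlings in liquid half-strength MS for 1 h. The medium held 5 µM BA in the WT BA group and 0.01% of 5 N NaOH in the WT vehicle group. The roots of the 12 seedlings of a treatment were then cut off. The same 2 treatments of the quintuple mutant bpc1,2,3,4,6, which lacks members of the BASIC PENTACYSTEINE family of GA-repeat-binding proteins, gave a further 3 libraries per group, and these are used here as a measurement of the same BA treatment in other plants. One label calls the tissue seedlings, while the source name and the protocol say whole roots. The labels do not say whether libraries of a group came from separate sowings, so p-values measure the spread between these libraries, which may be technical. Genes were taken when they reached 0.5 RPKM (reads per kilobase of gene length, scaled to the number of mapped reads) in at least 3 of the 12 libraries, which kept 20776 of the 33602 genes listed. Of these, 251 reached that level in exactly 3 libraries, and a further 284 genes reached it in exactly 2 and were left out.

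Cytokinins are adenine derivatives that bind membrane receptor kinases of the two-component type. The receptors pass phosphate through shuttle proteins to type-B response regulators in the nucleus, which are transcription factors that bind short DNA elements with the core GAT. Their direct targets include the type-A response regulators, which damp the pathway, and the cytokinin oxidases, which break the hormone down. In roots, cytokinin is known to slow elongation, to promote the exit of cells from the meristem, to oppose auxin and to block the start of lateral roots. The genes of the 6 known cytokinin lists (receptors and relay, type-A regulators, response factors, synthesis, breakdown, and CC-type glutaredoxins) held 74 measured genes, of which 35 rose and 11 fell (47.3% and 14.9%, against 3.85% and 4.83% of all genes tested). What follows concerns the other genes.

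In each library, the lowest RPKM values of 614 to 794 genes gave the same whole number of reads as the divisor, between 9427912 and 13951019, so that 1 read on a gene of 1 kb was worth 0.0717 to 0.106 RPKM. With RefSeq gene lengths 13.0% to 13.7% of the values came out within 0.01 of a whole read, so no count test was run. The divisor of WT BA 1 was the same as that of WT vehicle 2, 11653485, and the length-weighted sum of the RPKM values of WT BA 1 was 86.5% of the median library, against 99.8% to 100% in the other 11. The depth of WT BA 1 is therefore not known from its divisor. Its values are printed as deposited, so by this sum they stand at 86.5% of the scale of the other libraries, and the WT BA means and SDs include them. A fit with this library rescaled is given beside the main counts. Markers of root hairs, non-hair epidermis, endodermis, xylem vessels, phloem, root cap and the stem cell niche were all detected, 27 of 27, and 6 of 6 markers of photosynthetic shoot tissue were too, with a summed level of 112 to 163 RPKM with vehicle and 108 to 147 RPKM with BA. Of 7 endodermis markers 2 fell, the regulators SCR (adjusted p = 0.0056) and MYB36 (adjusted p = 0.0322, called in 12 of the 16 alternatives to the fit), and the summed level of the 7 was 451 to 527 RPKM with vehicle and 355 to 463 RPKM with BA. Among 4 xylem vessel markers the vessel regulator VND6 rose (log2 change 0.87, adjusted p = 0.0076). VND7, XCP1 and XCP2 had log2 changes of 0.36, -0.19 and -0.145 and did not pass (limma adjusted p = 0.575, 0.522 and 0.638). The summed level of the 4 was 131 to 152 RPKM with vehicle and 119 to 150 RPKM with BA. The part of cell types in the results was not tested; of the 5 shoot markers high enough to be tested, 0 passed limma's adjusted test and 0 had an unadjusted p under 0.05. In whole roots, fewer cells of a type and less RNA per cell cannot be told apart.

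Within 1 h, BA raised 799 genes and lowered 1004 in WT roots at an adjusted p below 0.05 (limma on log2(RPKM + 0.5), Benjamini-Hochberg over all 20776 genes), which is 3.85% and 4.83% of those tested. The rises were larger than the falls. At least 2-fold, 390 genes rose (1.88%) and 247 fell (1.19%); at least 4-fold, 95 rose and 15 fell; at least 8-fold, 25 rose and 1 fell. Raised genes went from a median of 7.23 RPKM with vehicle to 16.3 RPKM with BA, and lowered genes from a median of 16.2 to 9.17 RPKM. Choosing genes by their change itself affects these levels. The counts of this fit include the known cytokinin genes, among them 10 type-A response regulators with a median log2 change of 3.54. All 3 BA libraries lay above all 3 vehicle libraries for 798 of the raised genes, where 7.90% of all genes tested had that order, and below them for 998 of the lowered genes, where 13.0% of all genes did. These shares use WT BA 1 as deposited and were not recomputed with it rescaled. Genes were called on these same libraries, so the order among called genes is no separate support. The balance of rises and falls moved with WT BA 1: with that library rescaled 1025 genes rose and 928 fell, and without it 829 rose and 622 fell. A core of 487 raised genes (2.34% of all) and 506 lowered genes (2.44%) kept its call under all 16 alternatives, and single genes are named below from this core unless stated. The shares of all genes, 3.85% raised and 4.83% lowered, are the background for the count of each list below. Over all genes tested the median log2 change was -0.047. The authors' deposited table for the same comparison lists 1771 genes raised and 1939 lowered at an FDR below 0.05, including 95.9% of the genes raised and 98.4% of those lowered here. Conversely, 43.3% of the authors' raised genes and 51.0% of their lowered genes were called here. Both rest on the same libraries.

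**Figure D1:**
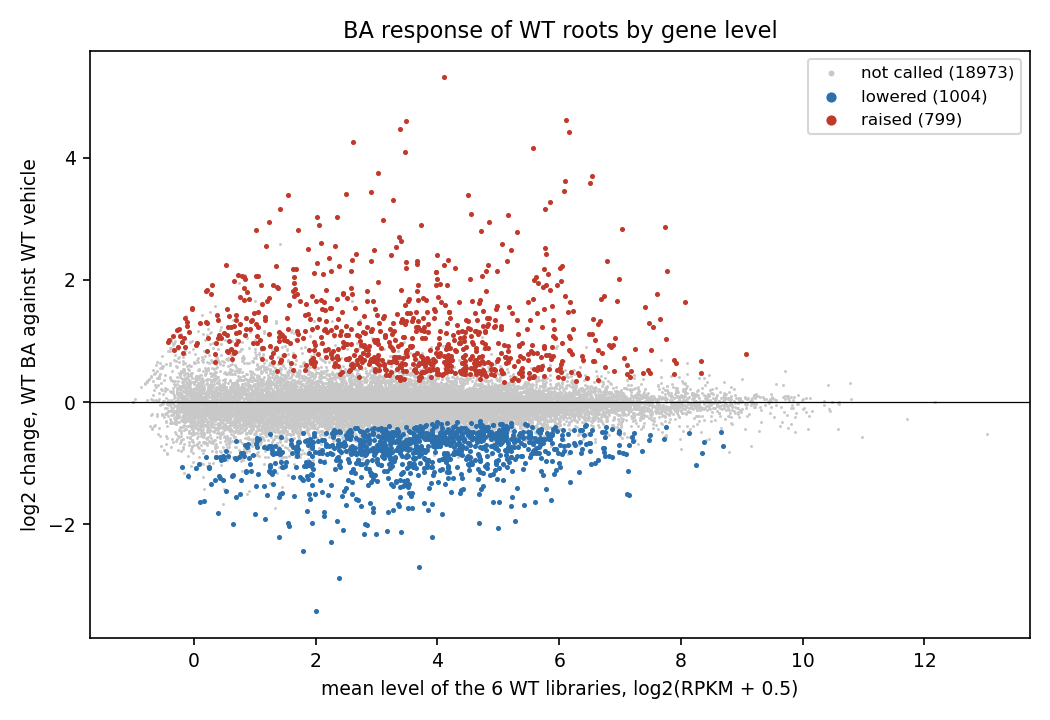
Mean level of each gene over the 6 WT libraries (x axis, log2(RPKM + 0.5)) against its log2 change with BA in WT roots (y axis); each point is 1 of 20776 genes, red for the 799 raised, blue for the 1004 lowered and grey for those not called. The red points reach further from 0 than the blue ones and lie mostly at low to middle levels.

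Outside the known cytokinin lists, the gene with the largest rise on the log2(RPKM + 0.5) scale was AT5G47980, an acyltransferase gene of the thalianol cluster, a group of neighbouring genes that makes the root triterpene thalianol and its derivatives. It read 7.22, 6.37 and 4.32 RPKM in the vehicle libraries and 126, 121 and 163 RPKM in the BA libraries (log2 change 4.42 ± 0.20, adjusted p = 4.46e-08). Log2 changes are given ± SE on that scale throughout. Every BA library was thus more than 10 times as high as every vehicle library. The basic helix-loop-helix (bHLH) gene AT4G25410 stood at 4.51, 3.97 and 5.11 RPKM with vehicle and 75.4, 92.6 and 99.5 RPKM with BA (log2 change 4.15 ± 0.21, adjusted p = 1.21e-07). A second bHLH gene on another chromosome, AT5G51780, stood at 12.6, 10.6 and 8.43 RPKM with vehicle and 90.3, 97.1 and 103 RPKM with BA (log2 change 3.15 ± 0.15, adjusted p = 7.48e-08). For both genes the 3 BA libraries lay close together and far above the vehicle libraries. The F-box gene AT3G44326, whose protein class picks targets for ubiquitination, went from 10.3, 10.2 and 8.9 to 110.2, 133 and 136 RPKM (log2 change 3.62 ± 0.24, adjusted p = 8.93e-07). The cytochrome P450 gene CYP82F1 (AT2G25160) went from 14.1, 14.3 and 11.8 to 143, 178 and 178 RPKM (log2 change 3.59 ± 0.12, adjusted p = 5.22e-09), and had the smallest adjusted p of these genes.

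Several of the 15 largest rises on this scale began at or near the limit of detection. Where the vehicle level is near 0, the size of the rise depends on the pseudocount, and by the ratio of mean RPKM some of them exceed AT5G47980. AT1G33740, which RefSeq lists without a product, was listed at 0, 0.342 and 0 RPKM with vehicle and at 12.7, 8.29 and 12.3 RPKM with BA. AT3G29252, also without a product, was listed at 0, 0 and 0 RPKM with vehicle and 5.83, 4.01 and 4.59 RPKM with BA. A putative CCCH zinc finger gene, AT2G43470, read 0.897, 0.597 and 0.691 RPKM with vehicle and 21.4, 21.8 and 18.2 RPKM with BA (log2 change 4.09 ± 0.18, adjusted p = 4.73e-08). These genes were almost silent with vehicle and clearly expressed in each BA library. AT1G34330, again without a product, read 0.691, 0.496 and 0.67 RPKM with vehicle and 13.3, 16.8 and 13.8 RPKM with BA. AT5G35915, also without one, was listed at 0, 0 and 0.108 RPKM with vehicle and 2.99, 4.37 and 3.65 RPKM with BA. The tRNA-Ile gene AT2G17810 read 1.94, 0 and 0 RPKM with vehicle and 6.96, 5.21 and 7.16 RPKM with BA. Its adjusted p of 0.00467 was the weakest of the 15. On a short gene such values can stand for a few reads. The WD40-repeat gene AT1G49450 rose from 1.32 ± 0.629 to 17 ± 3.52 RPKM, the cotton-fibre-protein gene AT2G34610 rose from 4.48 ± 1.18 to 41.5 ± 10.7 RPKM, and AT1G06980, annotated as a lumazine synthase, rose from 0.626 ± 0.245 to 8.55 ± 0.505 RPKM (mean ± SD, n = 3 libraries in each group, here and below). YLS9 (AT2G35980), a LEA-type glycoprotein gene first described in yellowing leaves, rose from 7.07 ± 1.39 to 63 ± 12.6 RPKM (log2 change 3.06 ± 0.19, adjusted p = 4.88e-07).

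Of the 15 largest falls 7 were in transcription factor genes. ERF53 (AT2G20880), an AP2/ERF transcription factor gene tied to drought responses, fell from 6, 5.92 and 8.7 RPKM with vehicle to 0.0665, 0.358 and 0.137 RPKM with BA (log2 change -3.42 ± 0.20, adjusted p = 4.4e-07). The uncharacterized gene AT1G27670 fell from 8.99, 8.35 and 8.49 to 0.649, 1.08 and 0.573 RPKM (log2 change -2.87 ± 0.18, adjusted p = 5.07e-07). LAF1 (AT4G25560), a MYB factor known from far-red light signalling, fell from 22.7, 19.6 and 30.7 to 3.73, 4.73 and 6.2 RPKM (log2 change -2.21 ± 0.22, adjusted p = 2.65e-05). The vehicle and BA libraries of these 3 genes did not overlap, as the rule for choosing them required. IBH1 (AT2G43060), a bHLH protein that restrains cell elongation against brassinosteroid, fell from 33.3, 27.7 and 60.7 to 6.4, 12.5 and 10.02 RPKM (log2 change -1.98 ± 0.31, adjusted p = 0.00101). Vehicle library 3 was about 2 times the other vehicle libraries. GRI (AT1G53130), a precursor of an extracellular peptide that controls cell death, fell from 14.1 ± 2.24 to 2.93 ± 0.916 RPKM (log2 change -2.11 ± 0.19, adjusted p = 1.51e-05). GDU2 (AT4G25760), a glutamine dumper gene of amino acid export, fell from 10.8 ± 0.946 to 2.13 ± 0.812 RPKM (log2 change -2.15 ± 0.26, adjusted p = 0.00014). The pectin-lyase-like gene AT3G26610 fell from 10.7 ± 1.08 to 2.32 ± 0.425 RPKM (log2 change -1.99 ± 0.14, adjusted p = 1.36e-06). Further AP2/ERF genes among the 15 were ERF2 (AT5G47220), which fell from 12.5 ± 1.81 to 2.41 ± 0.348 RPKM, and RAP2.9 (AT4G06746), which fell from 50.9 ± 10.6 to 12 ± 3.42 RPKM. WRKY54, WOX11 and NRT2.6 also belong to the 15 and are described with their families. The 3 uncharacterized genes that complete the set, AT3G25011, AT2G15830 and AT5G38790, had log2 changes of -2.43 ± 0.38, -2.13 ± 0.23 and -2.01 ± 0.39. For AT3G25011 the change in bpc roots was -0.65 ± 0.38 (adjusted p = 0.44), not past the threshold. This gene read 5.03, 4.52 and 6.1 RPKM with vehicle and 0.753, 1.35 and 0 RPKM with BA. On a short gene such values can stand for a few reads.

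**Figure D2:**
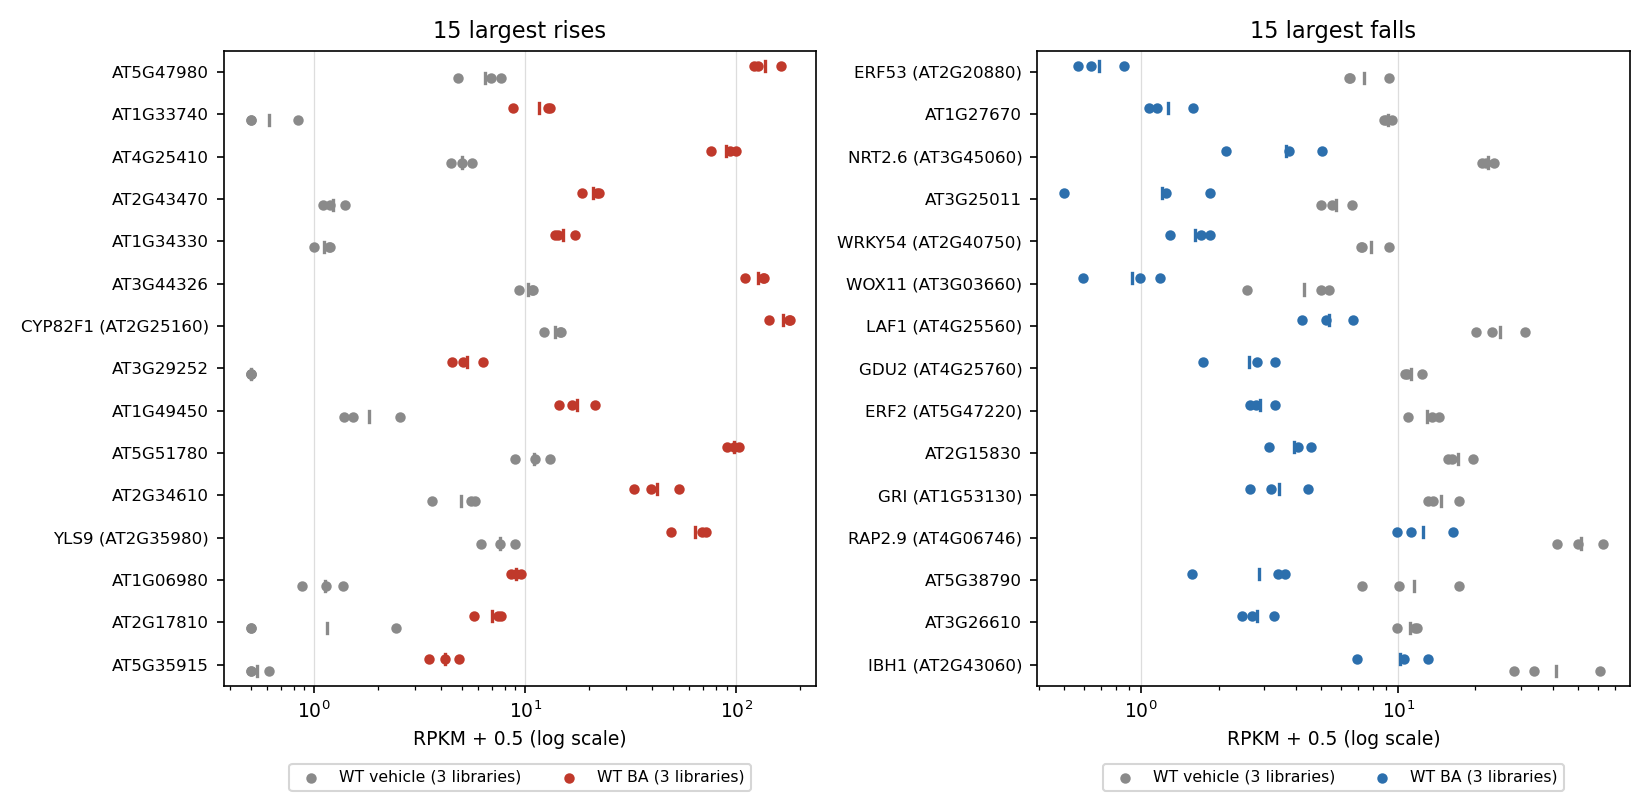
RPKM + 0.5 on a log axis for the 15 genes with the largest rises (left) and the 15 with the largest falls (right) outside the known cytokinin lists; each dot is 1 WT library, grey for vehicle and coloured for BA, and the vertical ticks are group means. The 3 BA dots lie on 1 side of the 3 vehicle dots for every gene shown, as the rule for choosing them required.

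By amount of RNA instead of fold, the 8 largest gains included genes of specialised metabolism and an auxin carrier. The sulfotransferase gene ST4B (AT1G13420) gained most, from 41.1, 47.3 and 67 RPKM with vehicle to 317, 416 and 396 RPKM with BA (log2 change 2.87 ± 0.18, adjusted p = 5.52e-07). The dirigent-like gene AT4G11190, of a family that guides the coupling of phenolic radicals, rose from 80.7 ± 16.7 to 356 ± 50.4 RPKM (log2 change 2.14 ± 0.19, adjusted p = 1.22e-05). GSTU26 (AT1G17190), a tau-class glutathione transferase, rose from 132 ± 24.7 to 406 ± 67.8 RPKM (log2 change 1.63 ± 0.16, adjusted p = 3.05e-05). PILS5 (AT2G17500), an auxin carrier of the PIN-LIKES family, which sits in the endoplasmic reticulum and holds auxin back from the nucleus, went from 102, 86 and 76.6 to 262, 284 and 354 RPKM (log2 change 1.76 ± 0.15, adjusted p = 7.61e-06). SDR4 (AT3G29250), a short-chain dehydrogenase gene, rose from 112 ± 18.6 to 289 ± 51.3 RPKM, and the TRAF-like gene AT5G26260 rose from 394 ± 32.8 to 682 ± 48.9 RPKM. The 8 largest losses included cell wall genes and proline dehydrogenase. AGP2 (AT2G22470), an arabinogalactan protein of the cell surface, read 362, 309 and 559 RPKM with vehicle and 165, 214 and 208 RPKM with BA (log2 change -1.03 ± 0.19, adjusted p = 0.00346), with vehicle library 3 well above the other vehicle libraries. ERD5 (AT3G30775), proline dehydrogenase, the first enzyme of proline breakdown, fell from 514 ± 52.9 to 313 ± 15.9 RPKM (log2 change -0.71 ± 0.12, adjusted p = 0.00147). DIN10 (AT5G20250), a raffinose synthase family gene known to rise in the dark, fell from 209 ± 23.3 to 120.3 ± 17.3 RPKM (log2 change -0.80 ± 0.13, adjusted p = 0.00175). The ACC oxidase 5 gene (AT1G77330), annotated to the last step of ethylene synthesis, fell from 205 ± 14.8 to 72.5 ± 6.95 RPKM (log2 change -1.50 ± 0.13, adjusted p = 1.12e-05). EXL2 (AT5G64260), an EXORDIUM-like gene, fell from 418 ± 80.2 to 233 ± 29.1 RPKM, the AP2/ERF gene RAP2.6 (AT1G43160) fell from 209 ± 40.02 to 72.9 ± 17.4 RPKM, and the peroxidase gene AT3G01190 fell from 255 ± 33.5 to 167 ± 15.8 RPKM.

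Of the 79 family and process lists, triterpene synthesis had the greatest share of rising genes. Of 8 measured genes of the thalianol and marneral clusters, 7 rose (87.5% against 3.85% of all genes), all 7 under every alternative, and the median log2 change of the list was 1.35. Thalianol synthase THAS1 (AT5G48010), which cyclises oxidosqualene to thalianol, read 51.7, 51.1 and 53 RPKM with vehicle and 119, 126 and 159 RPKM with BA (log2 change 1.36 ± 0.13, adjusted p = 2.57e-05). CYP705A5 (AT5G47990), a P450 that oxidises the product, read 77.9, 90.2 and 88.8 RPKM with vehicle and 225, 226 and 312 RPKM with BA (log2 change 1.55 ± 0.16, adjusted p = 4.3e-05). The hydroxylase gene CYP708A2 (AT5G48000) rose from 57.6 ± 1.2 to 141 ± 25.7 RPKM (log2 change 1.27 ± 0.12, adjusted p = 2.72e-05), and the acyltransferase gene AT5G47950 rose from 12.2 ± 2.34 to 38.1 ± 5.28 RPKM (log2 change 1.62 ± 0.15, adjusted p = 1.77e-05). In the marneral cluster, CYP71A16 (AT5G42590), marneral oxidase, rose from 25.4 ± 5.33 to 65 ± 4.87 RPKM (log2 change 1.35 ± 0.23, adjusted p = 0.00228), and CYP705A12 (AT5G42580) rose from 13.1 ± 2.77 to 31.1 ± 7.35 RPKM (log2 change 1.21 ± 0.25, adjusted p = 0.0082). Marneral synthase MRN1 (AT5G42600) read 9.24, 11.5 and 9.2 RPKM with vehicle and 14.7, 10.1 and 20.6 RPKM with BA, and missed the threshold (log2 change 0.53 ± 0.25, adjusted p = 0.295). Its groups overlapped. The rise on chromosome 5 was not limited to the enzyme genes. The 8 tested genes in a row from AT5G47940 at position 19409242 to THAS1 ending at 19461706 (TAIR10.1) all rose, including AT5G47940, annotated as 40S ribosomal protein S27 (0.92 ± 0.16), the RAB GTPase gene RABA4C (0.85 ± 0.13) and AT5G47970 (0.69 ± 0.16), which are not annotated to the pathway. AT5G47970 kept its call under 11 of the 16 alternatives. RABA4C and AT5G47970 overlap on opposite strands. Whether reads were counted by strand is not stated, so their reads cannot be told apart. The next genes on either side, AT5G47930 and AT5G48020, had log2 changes of 0.053 ± 0.23 and 0.32 ± 0.12 and did not pass (adjusted p = 0.95 and 0.128). In bpc roots AT5G48020 did pass (log2 change 0.46, limma adjusted p = 0.0245), and AT5G47930 did not (0.26, limma adjusted p = 0.64).

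**Figure D3:**
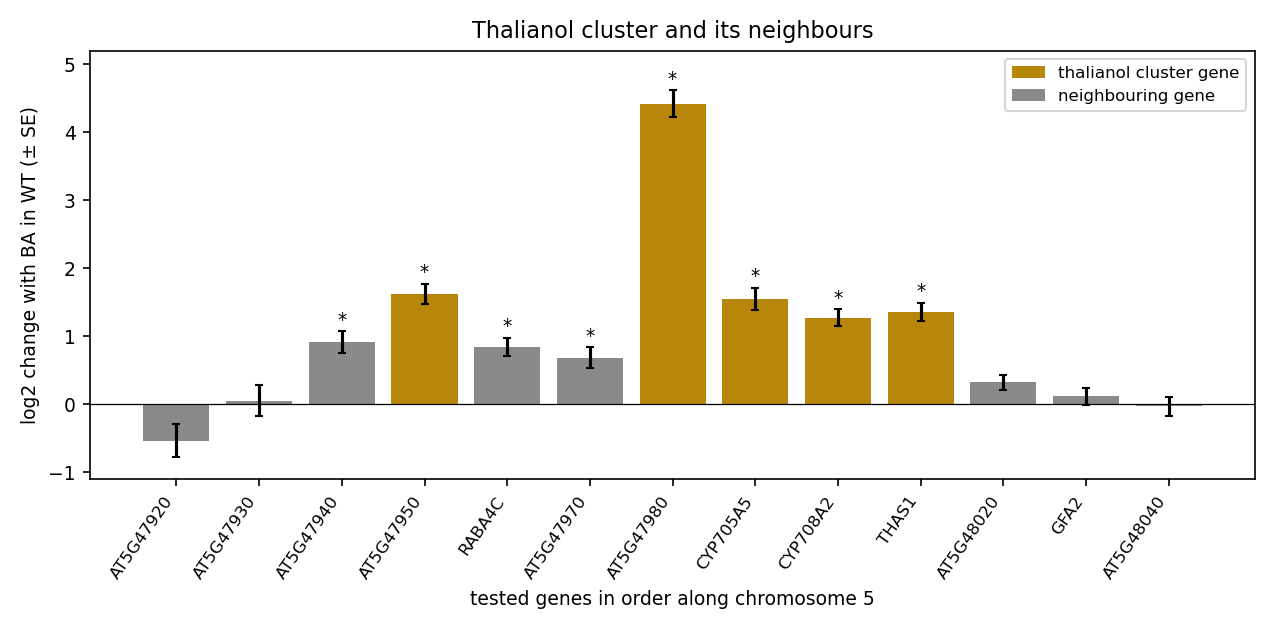
Log2 change with BA in WT roots (bars, with ± SE) of the tested genes around the thalianol cluster in their order along chromosome 5; ochre bars are cluster genes, grey bars their neighbours, and a star marks an adjusted p below 0.05. The 8 consecutive starred genes run from AT5G47940 to THAS1, with AT5G47980 highest at 4.42, and the genes outside lie at or below 0.32.

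The DNA just upstream of these genes is shown because type-B response regulators act through short AGAT elements, and because the cluster genes rose together. The 300 bases before the annotated start of 4 raised genes and 1 lowered gene were read from the RefSeq genome (TAIR10.1), 5′ to 3′ on the gene's strand. Capitals mark the motif AGATAC or AGATAT or AGATCC or AGATCT or AGATTC or AGATTT on either strand. A motif on the opposite strand appears as its reverse complement.
AT5G47980 (chr5:19428588-19428887, plus strand): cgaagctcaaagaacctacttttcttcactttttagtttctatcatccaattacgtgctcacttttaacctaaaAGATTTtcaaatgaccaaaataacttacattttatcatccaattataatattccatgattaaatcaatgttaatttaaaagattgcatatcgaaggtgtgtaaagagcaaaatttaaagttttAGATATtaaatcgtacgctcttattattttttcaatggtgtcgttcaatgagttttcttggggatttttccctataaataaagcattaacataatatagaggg
THAS1 (chr5:19456537-19456836, plus strand): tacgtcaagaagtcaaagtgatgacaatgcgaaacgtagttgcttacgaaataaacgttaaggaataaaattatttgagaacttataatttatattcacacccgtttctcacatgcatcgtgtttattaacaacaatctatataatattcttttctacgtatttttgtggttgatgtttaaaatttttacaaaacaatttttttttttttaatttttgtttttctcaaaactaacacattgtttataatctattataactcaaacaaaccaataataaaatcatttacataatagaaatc
AT4G25410 (chr4:12985361-12985660, plus strand): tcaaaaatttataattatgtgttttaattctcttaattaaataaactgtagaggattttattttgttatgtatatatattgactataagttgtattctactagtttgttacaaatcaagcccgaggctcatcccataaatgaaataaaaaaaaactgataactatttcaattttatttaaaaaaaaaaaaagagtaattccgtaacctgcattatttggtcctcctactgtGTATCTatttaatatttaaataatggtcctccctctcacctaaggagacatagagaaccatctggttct
CYP82F1 (chr2:10711282-10711581, minus strand): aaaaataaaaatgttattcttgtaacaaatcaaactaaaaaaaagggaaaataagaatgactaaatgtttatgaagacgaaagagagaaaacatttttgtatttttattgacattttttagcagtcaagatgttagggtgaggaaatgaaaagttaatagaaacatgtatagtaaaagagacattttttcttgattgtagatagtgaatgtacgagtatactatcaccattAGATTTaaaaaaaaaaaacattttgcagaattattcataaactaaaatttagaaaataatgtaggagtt
ERF53 (chr2:8985659-8985958, plus strand): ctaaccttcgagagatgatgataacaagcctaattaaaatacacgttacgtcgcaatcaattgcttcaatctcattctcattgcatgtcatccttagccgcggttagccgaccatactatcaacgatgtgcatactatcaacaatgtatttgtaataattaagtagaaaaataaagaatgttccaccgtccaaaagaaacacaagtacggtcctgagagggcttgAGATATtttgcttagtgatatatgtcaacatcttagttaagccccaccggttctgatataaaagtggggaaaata

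These windows held 2, 0, 1, 1 and 1 motifs in the order printed, and the raised genes and the lowered gene did not separate by this count. Over all 20594 tested genes with such a window, 72.6% held at least 1 of the 6 motifs, with a mean of 1.34 per window. Among genes raised by BA 80.6% held one, with a mean of 1.76, and among genes lowered 69.7% held one, with a mean of 1.19. Windows with 4 or more motifs made up 11.5% of the raised genes, 4.19% of the lowered genes and 5.50% of all genes. The mean share of A and T in the windows was 70.1% for raised, 70.4% for lowered and 68.5% for all genes. The shares include the genes of the known cytokinin lists. They are descriptions of sequence, and binding was not measured.

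Of 696 transcription factor genes in 18 lists, 61 rose and 96 fell, which is 8.76% and 13.8%, against 3.85% and 4.83% of all genes. The bHLH family was split. Of 93 measured bHLH genes, 16 rose and 14 fell (10 and 4 at least 2-fold), with a family median of -0.073. Without WT vehicle 3, 8 fell, and without WT BA 1 or WT BA 3, 9 fell. Besides the pair above, AT4G25400, the direct neighbour of AT4G25410, rose from 20.1, 13.2 and 14.5 to 82.7, 103 and 91.6 RPKM (log2 change 2.52 ± 0.14, adjusted p = 3.29e-07).

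Of 95 measured ERF and DREB genes 18 fell, 11 of them under every alternative, and 1 rose, TINY2 (AT5G11590). Without WT vehicle 3 or WT BA 1, 2 rose. The median of the family was -0.11. LEP (AT5G13910), a factor named for its leafy petiole phenotype, fell from 113, 105 and 110.2 to 45.2, 54.1 and 49.1 RPKM (log2 change -1.14 ± 0.10, adjusted p = 1.17e-05). The values within each group differed by little. Of 61 WRKY genes 8 fell and 5 rose; 5 fell without WT vehicle 2 and 4 without WT BA 1. WRKY54 (AT2G40750), a WRKY factor of senescence and salicylic acid responses, stood at 6.75, 6.67 and 8.7 RPKM with vehicle and 1.35, 1.21 and 0.792 RPKM with BA (log2 change -2.29 ± 0.21, adjusted p = 1.43e-05). WRKY65 (AT1G29280) fell from 169.5 ± 8.54 to 95.5 ± 11.4 RPKM. WRKY23 (AT2G47260), an auxin-inducible WRKY gene, rose from 6.19 ± 1.07 to 18 ± 2.7 RPKM (log2 change 1.47 ± 0.15, adjusted p = 3.41e-05). Of 72 NAC genes 7 rose and 9 fell, but just 2 kept the call under every alternative, both falling: NAP (AT1G69490), an activator of leaf senescence, fell from 15.1 ± 3.93 to 4.32 ± 0.217 RPKM (log2 change -1.67 ± 0.17, adjusted p = 3.08e-05), and NAC3 (AT3G15500) fell from 9.47 ± 0.995 to 4.7 ± 0.983 RPKM. Without WT BA 2, 1 NAC gene rose; without WT vehicle 1 it was 2, and without WT vehicle 2 or WT BA 3 it was 3. Without WT vehicle 1, WT vehicle 2 or WT BA 1, 5 NAC genes fell.

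In the MYB family 10 of 84 genes rose and 14 fell. Without WT vehicle 2, WT BA 2 or WT BA 3, 6 rose, and without WT BA 1 or WT BA 3, 9 fell. The MYB regulators of glucosinolates, the sulfur-rich defence compounds of the cabbage order, went in different directions. MYB34 (AT5G60890), an activator of the indole type, rose from 59.8, 53.8 and 58.5 to 126, 153 and 154 RPKM (log2 change 1.32 ± 0.13, adjusted p = 3.03e-05). MYB51 (AT1G18570), a second activator of the indole type, fell from 14.3 ± 2.23 to 5.63 ± 0.899 RPKM (log2 change -1.27 ± 0.14, adjusted p = 7.25e-05), and MYB28 (AT5G61420), an activator of the aliphatic type, fell from 36.8 ± 8.81 to 15.9 ± 2.05 RPKM (log2 change -1.16 ± 0.16, adjusted p = 0.000348). Of the 22 measured genes of glucosinolate synthesis as a whole 2 rose and 3 fell (median 0.17). The other rise was FMO GS-OX5 (AT1G12140) and the other fall MYB122 (AT1G74080). FMO GS-OX5 kept its call under 8 of the 16 alternatives, and 1 gene of the list rose when any WT library other than WT vehicle 2 was left out. MYB305 (AT3G24310) rose from 1.92 ± 0.386 to 7.22 ± 0.985 RPKM.

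The LOB-domain (LBD) family held regulators of both directions. ASL9 (AT1G16530) rose from 14.6, 10.3 and 7.9 to 52.7, 70.02 and 63.5 RPKM (log2 change 2.48 ± 0.20, adjusted p = 5.4e-06), and LBD4 (AT1G31320) rose from 6.33 ± 0.342 to 16.6 ± 2.82 RPKM (log2 change 1.32 ± 0.13, adjusted p = 2.49e-05). LBD16 (AT2G42430) and LBD29 (AT3G58190), which act below auxin response factors when a lateral root starts, both fell. LBD16 stood at 6.69, 7.62 and 8.82 RPKM with vehicle and 2.8, 3.21 and 1.92 RPKM with BA (log2 change -1.40 ± 0.18, adjusted p = 0.000295). LBD29 stood at 2.84, 2.5 and 2.8 RPKM with vehicle and 0.626, 0.965 and 0.644 RPKM with BA (log2 change -1.38 ± 0.15, adjusted p = 7.08e-05). The groups of both genes lay apart, as the rule for naming genes required. In all, 4 of 22 LBD genes rose and 5 fell, and 3 fell without WT vehicle 3, WT BA 1 or WT BA 3. WOX11 (AT3G03660), which starts adventitious roots, read 2.07, 4.86 and 4.53 RPKM with vehicle and 0.0954, 0.685 and 0.49 RPKM with BA (log2 change -2.21 ± 0.32, adjusted p = 0.000661). Of the 15 measured genes of lateral root initiation 3 fell (LBD16, LBD29 and LBD33, AT5G06080) and 1 rose (IAA28, AT5G25890), with a median of -0.31 against -0.047 over all genes. LBD33 kept its call under 8 and IAA28 under 10 of the 16 alternatives. The rise of IAA28 was lost when any WT library other than WT BA 1 was left out.

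Of 26 DOF zinc finger genes 6 fell and 1 rose. The rise was lost without WT vehicle 2 or WT BA 2, and without WT vehicle 3, 2 rose. AT2G34140 fell from 13.8 ± 1.51 to 5.27 ± 0.685 RPKM (log2 change -1.31 ± 0.16, adjusted p = 0.00018) and OBP2 (AT1G07640) fell from 15.9 ± 2.12 to 7.6 ± 1.15 RPKM. Of 20 GRAS genes 5 fell and 1 rose. SCL3 (AT1G50420), a scarecrow-like regulator of gibberellin responses, fell from 16.9 ± 1.96 to 8.27 ± 1.81 RPKM (adjusted p = 0.000522), whereas RGL2 (AT3G03450), a DELLA repressor of gibberellin responses, rose from 3 ± 0.349 to 5.53 ± 0.444 RPKM (log2 change 0.79 ± 0.13, adjusted p = 0.00145). Of 45 bZIP genes 7 fell and 1 rose, with 3 rising without WT BA 1. bZIP3 (AT5G15830) fell from 8.45 ± 2.99 to 2.67 ± 1.03 RPKM, and the riser was BZIP27 (AT2G17770), from 1.62 ± 0.545 to 4.87 ± 0.888 RPKM. The B-box (BBX) genes, known from light signalling, held 4 rises among 21. BZS1 (AT4G39070), also named BBX20, went from 21.2, 22.6 and 19.9 to 59, 74.8 and 68.5 RPKM (log2 change 1.64 ± 0.1, adjusted p = 4.74e-07). STO (AT1G06040) rose from 39.4 ± 3.69 to 81.4 ± 8.02 RPKM and LZF1 (AT1G78600) rose from 18.4 ± 0.429 to 30.1 ± 3.69 RPKM. Both zinc finger genes of trichome formation that were called in the ZAT list rose: ZFP6 (AT1G67030) from 26 ± 1.57 to 72.3 ± 11.7 RPKM, and ZFP5 (AT1G10480) from 12 ± 3.6 to 42.6 ± 5.66 RPKM. Among 27 HD-ZIP I and II genes 1 rose (2 without WT BA 1) and 4 fell, and these included class II genes in both directions: HAT3 (AT3G60390) rose from 1.91 ± 0.261 to 6.56 ± 1.3 RPKM, and HAT9 (AT2G22800) fell from 7.48 ± 1.57 to 2.27 ± 0.801 RPKM. Of 20 clock genes 3 rose, among them PCL1 (AT3G46640), a component of the evening complex also named LUX, from 27.1 ± 2.33 to 43 ± 6.69 RPKM (log2 change 0.65 ± 0.12, adjusted p = 0.00314).

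Auxin genes showed both rises and falls. Of 36 SAUR genes, small auxin-induced genes that promote acid growth, 13 rose and 5 fell (36.1% and 13.9%), with a median of 0.17. AT5G10990 rose from 3.31, 2.77 and 1.38 to 14.2, 16.5 and 22.3 RPKM (log2 change 2.64 ± 0.26, adjusted p = 2.4e-05), whereas AT5G20820 fell from 15.1, 17.7 and 13.2 to 4.38, 4.06 and 4.64 RPKM (log2 change -1.70 ± 0.13, adjusted p = 2.66e-06) and AT5G50760 fell from 30.4 ± 8.22 to 10.6 ± 0.534 RPKM. Several SAUR genes lie in tandem and resemble each other in sequence, so reads could be split between them. The GH3 enzymes join auxin or jasmonate to amino acids. Of 8 measured, BRU6 (AT4G37390) fell from 5.37 ± 1.13 to 1.57 ± 0.386 RPKM (log2 change -1.50 ± 0.19, adjusted p = 0.000201) and GH3.1 (AT2G14960) fell from 2.88 ± 0.358 to 1 ± 0.192 RPKM. In the same family GH3.17 (AT1G28130) rose from 18.4 ± 0.599 to 31.6 ± 7.28 RPKM. DFL1 (AT5G54510) rose too, by 0.68 on the log2 scale, without keeping its call under every alternative. TAA1 (AT1G70560), the aminotransferase of the first step from tryptophan to auxin, fell from 21.5, 19.2 and 17.5 to 11.3, 12.9 and 12.6 RPKM (log2 change -0.63 ± 0.14, adjusted p = 0.00915) and was the single call among 8 synthesis genes, where 2 fell without WT vehicle 3. ARF2 (AT5G62000), a repressor among the auxin response factors, fell from 49.98 ± 0.389 to 33.4 ± 4.44 RPKM (log2 change -0.58 ± 0.11, adjusted p = 0.00331).

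Genes of brassinosteroid synthesis moved in both directions. DWF4 (AT3G50660), the C-22 hydroxylase, rose from 10.6 ± 1.89 to 20.8 ± 3.11 RPKM (log2 change 0.95 ± 0.14, adjusted p = 0.000847) and BR6OX1 (AT5G38970), a C-6 oxidase, rose from 2.58 ± 0.98 to 6.46 ± 0.929 RPKM (log2 change 1.22 ± 0.21, adjusted p = 0.00213). The other C-6 oxidase gene, BR6OX2 (AT3G30180), fell from 18.5 ± 3.5 to 11 ± 1.58 RPKM (log2 change -0.72 ± 0.14, adjusted p = 0.00459). ROT3 (AT4G36380), another hydroxylase of the pathway, fell from 18 ± 3.38 to 9.08 ± 1.46 RPKM (log2 change -0.95 ± 0.17, adjusted p = 0.0024). Of the 25 genes of brassinosteroid synthesis, breakdown and signalling, 2 rose and 4 fell, the others that fell being the receptor gene BRI1 and the inhibitor gene BKI1. BRI1 kept its call under 14 and BKI1 under 15 of the 16 alternatives, and without WT BA 1, 4 genes of the list rose. Repressors of karrikin and strigolactone signalling of the SMAX1-LIKE family also split. SMAX1 (AT5G57710) fell from 34.2, 35.2 and 40.6 to 14.2, 18.4 and 20.03 RPKM (log2 change -1.05 ± 0.15, adjusted p = 0.000542). SMXL2 (AT4G30350), its nearest relative, fell from 28.7 ± 2.25 to 15.5 ± 2.57 RPKM (log2 change -0.88 ± 0.13, adjusted p = 0.000758), while SMXL8 (AT2G40130) rose from 4.52 ± 0.7 to 8.66 ± 0.953 RPKM (log2 change 0.87 ± 0.17, adjusted p = 0.00601). Of 13 genes of this signalling list 1 rose and 3 fell; the remaining fall was CYP711A1 (AT2G26170), known as MAX1, of strigolactone synthesis.

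Of 34 CBL and CIPK genes, calcium sensors and the kinases they bind, 9 fell and 4 rose (26.5% and 11.8%), 8 and 3 of them under every alternative, with a median of -0.15. CIPK3 (AT2G26980) rose from 17.7, 16.1 and 18.7 to 36.4, 49.4 and 40.6 RPKM (log2 change 1.23 ± 0.12, adjusted p = 2.15e-05). CIPK12 (AT4G18700) fell from 63.1, 53.9 and 63.2 to 31.2, 37.8 and 33.4 RPKM (log2 change -0.81 ± 0.10, adjusted p = 0.000203) and CIPK13 (AT2G34180) fell from 18.1 ± 0.548 to 8.31 ± 0.562 RPKM (log2 change -1.08 ± 0.14, adjusted p = 0.000226). Of 45 MAP kinase cascade genes 3 rose and 2 fell (6.67% and 4.44%), near the shares of all genes, and 4 fell without WT BA 3. MAPKKK17 (AT2G32510), known from abscisic acid signalling, rose from 11.2 ± 1.91 to 50.9 ± 9.23 RPKM (log2 change 2.14 ± 0.28, adjusted p = 0.00031) and MAPKKK13 (AT1G07150) rose from 2.42 ± 0.669 to 6.92 ± 1.25 RPKM. MAPKKK15 (AT5G55090) fell from 13.3 ± 2.38 to 4.99 ± 1.78 RPKM. Of 60 calmodulin-like genes 3 rose and 5 fell (5.0% and 8.33%); AT2G36180 was at 0.165, 0 and 0.457 RPKM with vehicle and 1.38, 2.84 and 2.84 RPKM with BA. Of 149 receptor kinases of the leucine-rich repeat type 19 fell and 6 rose, but 8 fell without WT vehicle 1 and 10 without WT BA 1, and 7 kept the call under every alternative. For the rises it was 2 without WT vehicle 1, 3 without WT BA 2 and 1 without WT BA 3. AT2G25790 fell from 15 ± 1.97 to 5.85 ± 0.609 RPKM (log2 change -1.29 ± 0.14, adjusted p = 6.48e-05), and the neighbouring cysteine-rich kinase genes CRK29 (AT4G21410) and CRK28 (AT4G21400) fell, with log2 changes of -0.96 ± 0.13 and -0.88 ± 0.15. The peptide gene IDL5 (AT1G76952), a relative of the abscission signal IDA, rose from 15.7 ± 3.36 to 41.1 ± 3.68 RPKM (log2 change 1.38 ± 0.16, adjusted p = 0.000103). Of 177 F-box genes 6 rose and 4 fell, 3.39% and 2.26%, which is near or below the shares of all genes; AUF2 (AT1G22220) fell from 29.4 ± 1.65 to 12.1 ± 1.82 RPKM (log2 change -1.25 ± 0.14, adjusted p = 8.26e-05) and AT4G14103 rose from 0.966 ± 0.435 to 4.25 ± 0.805 RPKM.

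**Figure D4:**
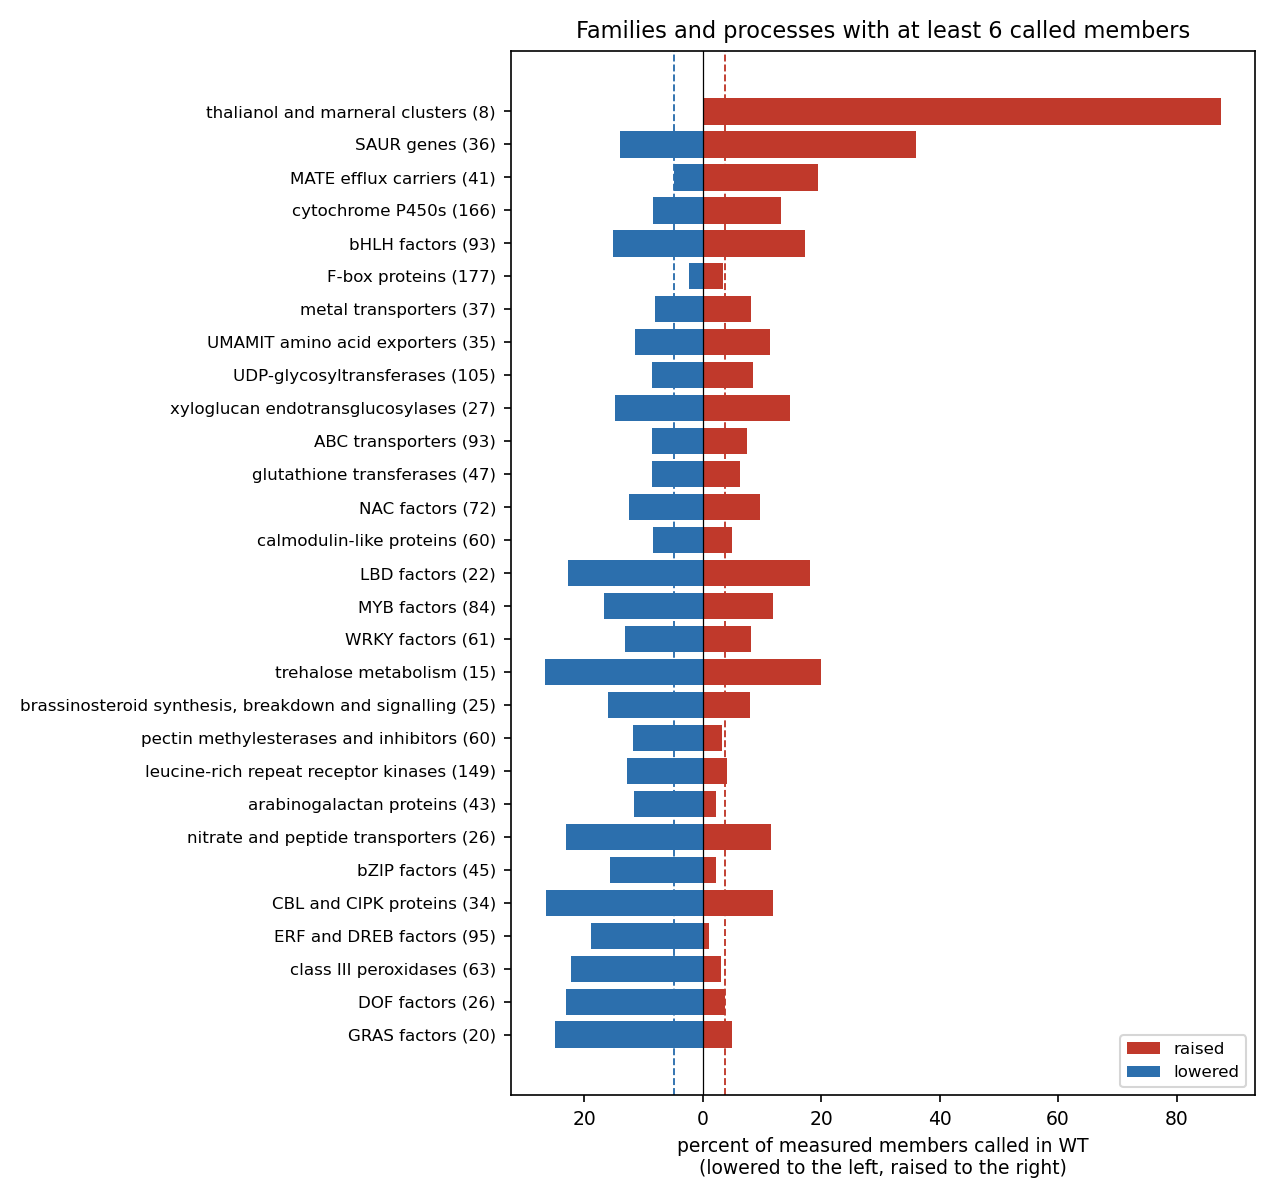
Share of the measured members called in WT roots (x axis, percent; raised to the right in red, lowered to the left in blue) for the families and processes with at least 6 called members, with the number measured in brackets and the shares over all genes as dashed lines (3.85% and 4.83%). Lists are ordered by the raised minus the lowered share, from the triterpene clusters, SAUR genes and MATE carriers at the top to class III peroxidases, DOF and GRAS genes at the bottom.

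Of 273 cell wall genes 33 fell and 15 rose (12.1% and 5.49%). Class III peroxidases, secreted enzymes that cross-link or loosen walls with hydrogen peroxide, contributed most: 14 of 63 fell (22.2%), 9 of them under every alternative, and 2 rose. AT4G33420 fell from 94.8, 98.9 and 114 to 39.1, 39.4 and 44.6 RPKM (log2 change -1.31 ± 0.11, adjusted p = 8.14e-06), and AT1G49570 fell from 8.93, 6.89 and 8.65 to 2.06, 2.31 and 2.19 RPKM (log2 change -1.68 ± 0.15, adjusted p = 1.49e-05). RHS18 (AT5G22410), a peroxidase gene specific to root hairs, rose from 5.55 ± 0.933 to 16 ± 1.45 RPKM (log2 change 1.45 ± 0.17, adjusted p = 0.000111), while the 4 root hair markers did not pass, at a summed 73.1 to 119 RPKM with vehicle and 96.1 to 106 RPKM with BA (0 of the 4 had an unadjusted p under 0.05). Expansins, which loosen walls, moved both ways: EXPA17 (AT4G01630) fell from 197, 180.2 and 202 to 85.7, 88.3 and 89.3 RPKM (log2 change -1.13 ± 0.097, adjusted p = 1e-05). EXPA14 (AT5G56320) rose from 21.1, 20.8 and 23.2 to 50.2, 65.4 and 53.9 RPKM (log2 change 1.35 ± 0.12, adjusted p = 1.1e-05), and EXPA12 (AT3G15370) rose from 1.13 ± 0.429 to 3.65 ± 0.421 RPKM. Of 27 xyloglucan endotransglucosylases 4 rose and 4 fell; 2 rose without WT BA 2 or WT BA 3, and 2 fell without WT vehicle 1 or WT BA 1. XTH33 (AT1G10550) rose from 7.12 ± 2.1 to 24.2 ± 4.5 RPKM, XTH15 (AT4G14130) fell from 84.5 ± 8.04 to 42.2 ± 4.97 RPKM and XTH21 (AT2G18800) fell from 18.6 ± 1.76 to 8.97 ± 1.05 RPKM. Of 43 arabinogalactan protein genes 5 fell and 1 rose, a call lost when any WT library other than WT vehicle 2 was left out, and the fasciclin-like genes FLA13 (AT5G44130) and FLA17 (AT5G06390) had log2 changes of -0.73 ± 0.11 and -0.48 ± 0.088. Of 60 pectin methylesterase and inhibitor genes 7 fell and 2 rose, and 4 fell without WT BA 3; AT3G49330 rose from 12.4 ± 4.86 to 38.6 ± 3.04 RPKM (log2 change 1.67 ± 0.22, adjusted p = 0.000349). The 14 extensin and LRX genes had the lowest median of the wall lists, -0.55, but 0 passed the limma test, and 3 were lower at an unadjusted p under 0.05.

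Of 382 transport genes 38 rose and 40 fell (9.95% and 10.5%). Of 41 MATE efflux carriers, which export organic acids, hormones and toxins, 8 rose and 2 fell (19.5% and 4.88%), 6 of the rises under every alternative. Without WT vehicle 1, WT BA 1 or WT BA 3, 1 fell. AT1G11670 rose from 122, 102 and 106 to 232, 285 and 261 RPKM (log2 change 1.23 ± 0.11, adjusted p = 1.2e-05), AT2G04100 rose from 7.11 ± 1.46 to 20.3 ± 2.44 RPKM and AT4G21910 rose from 27.3 ± 1.81 to 52.7 ± 4.92 RPKM. Of 93 ABC transporters 7 rose and 8 fell, and without WT BA 1, 4 fell, and without WT vehicle 1, WT vehicle 2 or WT BA 2, 5 fell. ABCG30 (AT4G15230), a pleiotropic-drug-resistance type carrier, rose from 6.29, 6.06 and 5.94 to 44.8, 48.2 and 58.1 RPKM (log2 change 2.94 ± 0.16, adjusted p = 2.01e-07). ABCG14 (AT1G31770), which loads cytokinin for transport from root to shoot, rose from 51.9, 57.1 and 44.9 to 82.2, 89.1 and 104 RPKM (log2 change 0.83 ± 0.12, adjusted p = 0.000573). ABCC4 (AT2G47800) rose from 16.2 ± 2.26 to 39.9 ± 4.7 RPKM.

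Of 26 nitrate and peptide transporters 6 fell and 3 rose; 3 fell without WT vehicle 2 or without WT BA 1, and 1 rose without WT vehicle 2 or WT BA 2. NRT2.6 (AT3G45060), of the high-affinity family, read 23.1, 21.6 and 20.8 RPKM with vehicle and 4.54, 1.64 and 3.27 RPKM with BA (log2 change -2.70 ± 0.50, adjusted p = 0.00351). NRT1.8 (AT4G21680), which takes nitrate out of the xylem sap, fell from 52.5, 39.6 and 52.4 to 13.6, 13.9 and 18 RPKM (log2 change -1.63 ± 0.19, adjusted p = 0.000123), and NRT1:2 (AT1G69850), also named NPF4.6, a carrier of nitrate and abscisic acid, fell from 37 ± 2.44 to 18.2 ± 3.81 RPKM (log2 change -1.02 ± 0.14, adjusted p = 0.000566). AT3G21670 rose from 2.73 ± 0.441 to 8.82 ± 0.642 RPKM. Nitrate reductase NIA1 (AT1G77760) rose from 27.6 ± 6.16 to 52.4 ± 10.6 RPKM (log2 change 0.92 ± 0.18, adjusted p = 0.00621), while the second reductase gene, NIA2 (AT1G37130), fell by 0.54 on the log2 scale and did not keep its call under every alternative. Of 18 phosphate starvation genes 5 fell. PHT1;4 (AT2G38940), an uptake carrier, fell from 41.2 ± 2.74 to 20.3 ± 3.26 RPKM (log2 change -1.01 ± 0.13, adjusted p = 0.000297), and PHO1 (AT3G23430), which loads phosphate into the xylem, fell from 99.8 ± 7.23 to 68.9 ± 6.58 RPKM (log2 change -0.53 ± 0.097, adjusted p = 0.00319). The sulfate transporter gene SULTR3;4 (AT3G15990) rose from 6.92 ± 0.782 to 27.9 ± 6.1 RPKM (log2 change 1.92 ± 0.23, adjusted p = 0.000118), and ATSDI1 (AT5G48850), named for its induction in sulfur deficiency, fell from 19.6 ± 3.62 to 9.05 ± 1.1 RPKM (log2 change -1.06 ± 0.14, adjusted p = 0.000348). Among metal carriers IRT2 (AT4G19680), a relative of the root iron importer, rose from 3.41 ± 1.34 to 9.43 ± 0.924 RPKM and HMA2 (AT4G30110), a zinc pump, fell from 3.29 ± 0.54 to 1.43 ± 0.202 RPKM.

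Amino acid carriers changed in both directions too. Of 35 UMAMIT exporters 4 rose and 4 fell, all 8 under every alternative: UMAMIT31 (AT4G01440) fell from 14.1, 17 and 14.2 to 5.26, 4.56 and 4.61 RPKM (log2 change -1.55 ± 0.12, adjusted p = 2.6e-06). Its neighbour UMAMIT30 (AT4G01450) fell from 45.6 ± 5.4 to 23.7 ± 1.24 RPKM, and UMAMIT13 (AT2G37450) rose from 1.97 ± 0.253 to 7.89 ± 0.919 RPKM (log2 change 1.77 ± 0.19, adjusted p = 4.6e-05). Of 13 amino acid permeases 3 rose and 2 fell, with 1 falling without WT vehicle 2, WT BA 1 or WT BA 2. AAP3 (AT1G77380) rose from 11.4 ± 3.36 to 27.6 ± 4.29 RPKM, and the proline transporter gene PROT2 (AT3G55740) rose from 15.4 ± 2.46 to 37.2 ± 7.34 RPKM (log2 change 1.24 ± 0.19, adjusted p = 0.000916). Of 20 sugar transporters 4 rose, and 2 rose without WT vehicle 2, WT vehicle 3 or WT BA 3; the vacuolar carrier SWEET16 (AT3G16690) rose from 40.3 ± 7.74 to 68.3 ± 7.96 RPKM, and MSS1 (AT5G26340), also named STP13, a hexose importer, rose from 19.1 ± 5.22 to 34.9 ± 4 RPKM. The aquaporin-like gene NLM1 (AT4G19030) rose from 58.4 ± 10.1 to 127 ± 9.97 RPKM (log2 change 1.12 ± 0.17, adjusted p = 0.000745), and the potassium carrier gene KUP6 (AT1G70300) fell from 34.7 ± 1.72 to 19.9 ± 1.38 RPKM (log2 change -0.79 ± 0.12, adjusted p = 0.000769).

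Of 455 metabolic genes in 10 lists 48 rose and 37 fell (10.5% and 8.13%). Cytochrome P450s, oxygenases of hormone and defence compound synthesis, gave 22 rises and 14 falls of 166 (13.3% and 8.43%), and CYP87A2 (AT1G12740) rose from 8.35, 8.51 and 10.1 to 44.5, 65.3 and 60.04 RPKM (log2 change 2.58 ± 0.15, adjusted p = 4.03e-07). CYP94B3 (AT3G48520), which inactivates the active jasmonate conjugate, fell from 44.5, 40.1 and 39.9 to 17.4, 19.98 and 19.4 RPKM (log2 change -1.11 ± 0.11, adjusted p = 2.49e-05). Of 105 UDP-glycosyltransferases 9 rose and 9 fell; UGT74F2 (AT2G43820), which attaches glucose to salicylic acid, fell from 37.4 ± 3.85 to 12.9 ± 2.37 RPKM (log2 change -1.51 ± 0.14, adjusted p = 1.49e-05). UGT76D1 (AT2G26480) rose from 5.83 ± 0.861 to 20.3 ± 4.9 RPKM, and UGT71C3 (AT1G07260) fell from 24.7 ± 1.43 to 10.3 ± 2.51 RPKM. Of 47 glutathione transferases 3 rose, all of the tau class: GSTU26 above, GSTU1 (AT2G29490), from 39 ± 4.26 to 110.4 ± 13.4 RPKM, and its neighbour GSTU2 (AT2G29480), from 7.59 ± 1.48 to 18.2 ± 6.24 RPKM. In the same family 4 fell, GSTU4, GSTU12, GSTU23 and GSTU27, also of the tau class, and 1 of them kept its call under every alternative, with 2 falling without WT vehicle 3 and 1 without WT BA 1. Trehalose 6-phosphate phosphatases, which remove a sugar signal, moved in both directions: TPPH (AT4G39770) rose from 9.36 ± 0.95 to 30.3 ± 2.98 RPKM (log2 change 1.64 ± 0.14, adjusted p = 1.18e-05), TPPJ (AT5G65140) rose from 9.31 ± 2.81 to 26.3 ± 4.12 RPKM and TPPB (AT1G78090) fell from 18.4 ± 2.58 to 9.31 ± 1.25 RPKM; of 15 trehalose genes 3 rose and 4 fell, with 2 falling without WT vehicle 1 or WT BA 1. FAR5 (AT3G44550), an alcohol-forming reductase of suberin, rose from 53.2 ± 6.63 to 93.2 ± 17.9 RPKM. The lipid-transfer-protein gene AT4G22666 rose from 34.6 ± 0.561 to 109.8 ± 14.8 RPKM (log2 change 1.64 ± 0.12, adjusted p = 1.74e-06).

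Few genes of the basic machinery of growth were called after 1 h, 4 up and 2 down of 410 (0.976% and 0.488%, against 3.85% and 4.83% of all genes). Of 269 genes of ribosomal proteins 2 rose, AT5G47940 beside the thalianol cluster and AT1G54217, and the list's median was 0.015. Among 43 histone genes, 25 DNA replication genes and 22 proteasome genes 0 passed limma's adjusted test, with medians of -0.0095, -0.078 and 0.019; at an unadjusted p under 0.05 it was 1, 0 and 0. Of 39 cyclins 2 rose and 2 fell (5.13% each), near the shares of all genes. Without WT vehicle 2, WT vehicle 3 or WT BA 1, 1 rose and 1 fell. Without WT BA 2, 1 fell, and without WT BA 3, 1 rose. CYCP4;3 (AT5G07450), a P-type cyclin, was at 0.743, 1 and 0.386 RPKM with vehicle and 6.11, 8.29 and 5.83 RPKM with BA (log2 change 2.60 ± 0.20, adjusted p = 4.06e-06). CYCD1;1 (AT1G70210), a D-type cyclin, fell from 11.7 ± 1.76 to 5.89 ± 0.858 RPKM (log2 change -0.94 ± 0.14, adjusted p = 0.000969). Of 187 stress genes 1 rose and 9 fell (0.535% and 4.81%), so the share that fell was close to that of all genes (4.83%). The NADPH oxidase gene RBOHB (AT1G09090) fell from 16.5 ± 0.889 to 7.59 ± 1.32 RPKM (log2 change -1.08 ± 0.22, adjusted p = 0.0075). Of 109 NLR immune receptor genes 3 fell, none of them under every alternative (1 fell without WT vehicle 1, and all 3 calls were lost without WT BA 1), and the list's median was -0.16.

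The bpc roots, which share no library with the WT groups, gave 880 raised genes (4.24%) and 905 lowered genes (4.36%) under the same treatment. The limma fit took 1 spread per gene from all 12 libraries, so the SEs and p-values of both genotypes share it. The overlaps of calls are therefore not an agreement of separate tests. Fitted alone, the WT groups gave 632 raised and 683 lowered genes. Of the WT rises 659 were also called in bpc roots, which is 82.5% of the WT list and 74.9% of the bpc list, and of the WT falls 685 were, which is 68.2% and 75.7%. Of the 799 genes raised in WT, 795 had a change above 0 in bpc roots, and of the 1004 lowered, 998 had a change below 0. The median log2 change of the WT rises was 0.98 in WT and 0.93 in bpc roots, and that of the WT falls was -0.75 and -0.64. These genes were chosen by their WT change, so a smaller median in bpc roots does not show a weaker response. Over all genes tested the median was -0.0469 in WT, with WT BA 1 as deposited, and 0.00174 in bpc roots. For single genes, AT5G47980 had a log2 change of 4.51 ± 0.20 in bpc roots, AT4G25410 4.00 ± 0.21, CYP82F1 3.75 ± 0.12, THAS1 1.37 ± 0.13, EXPA17 -1.12 ± 0.097 and UMAMIT31 -1.26 ± 0.12. Some genes named above were not called in bpc roots. Among them were AT2G17810 (1.73 ± 0.58, limma adjusted p = 0.0972) and SWEET16 (0.42 ± 0.16, limma adjusted p = 0.144). ERF53 had -2.44 ± 0.20 in bpc roots and -3.42 ± 0.20 in WT. Its mean with BA was near the floor in both, 0.1905 RPKM in bpc roots and 0.1872 RPKM in WT. With vehicle its mean was 3.24 RPKM in bpc roots and 6.87 RPKM in WT, so the fitted sizes depend on the pseudocount. This difference did not pass the test that follows. The test of the difference between the genotypes (the interaction term) passed for 1 gene of 20776 (0.00481%), the uncharacterized AT3G25221, and 338 genes had an unadjusted p under 0.05. AT3G25221 was listed at 0.683, 0.817 and 1.89 RPKM in WT vehicle and 0 in the 3 WT BA libraries. In bpc roots the order was the opposite. These levels are near the floor, and on a short gene they can stand for single reads. A difference that does not pass this test is not shown to be absent.

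**Figure D5:**
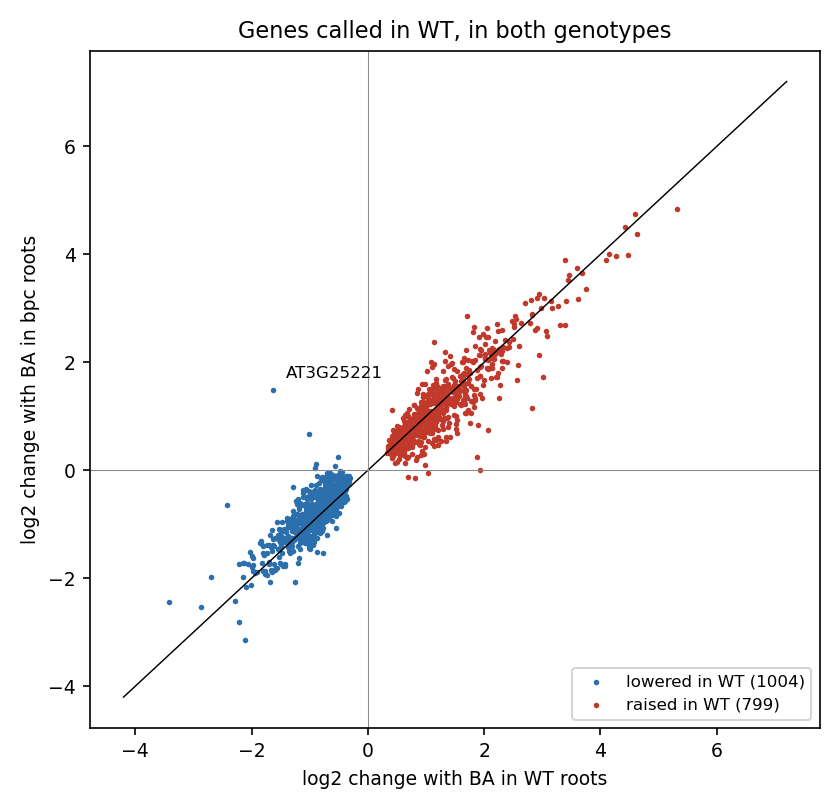
Log2 change with BA in WT roots (x axis) against that in bpc roots (y axis) for the 799 genes raised (red) and the 1004 lowered (blue) in WT, with the line of equal change. Most points lie near the line, and AT3G25221, the 1 gene that passed the test of the difference, lies above it on the left.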

How the data were processed

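RNA from roots was sequenced as stranded poly(A)-selected libraries, per the labels' protocols. Build TAIR10 is given, and per the submitters' processing notes the tools were edgeR 3.0, featureCounts, SAMtools 0.1.18, Bowtie 1.1.0, TopHat2 2.0.11 and FastQC. The authors deposited RPKM values for 33602 genes in 12 libraries. They also deposited a table of log2 fold changes, p-values and FDR, with a likelihood-ratio score, for BA against vehicle in WT, used for the comparison named as theirs alone. Reads without molecular identifiers are not independent molecules.

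From the RPKM values, log2(RPKM + 0.5) was computed and fitted with limma 3.58.1 in R 4.3.3, with an intensity trend, 1 coefficient for each of 4 groups and all 12 libraries, so that fold changes are on that scale and are understated for low genes. The threshold was 0.05 after Benjamini-Hochberg adjustment over 20776 genes. Symbols, products and coordinates came from RefSeq (TAIR10.1), which matched 20595 of the genes tested; the sequence windows were read from the same genome. The 79 family and process lists were built by symbol, locus or product, and no set test was run. The lists and the genes set apart as known were chosen with earlier results of these data known. Named genes passed the test, had WT groups that did not overlap, a higher mean of at least 2 RPKM and the same call under all 16 alternatives, and lay outside the known cytokinin lists: the 15 largest log2 changes and 8 largest RPKM changes in each direction, and up to 3 members of each list with the smallest p; where none qualified, up to 2. A gene named to complete a count was chosen after its values were seen. Alternatives were other pseudocounts (0.1 and 1), other filters, median-of-ratios scaling, quantile normalization, WT BA 1 rescaled, the WT groups alone, a replicate block, no trend and each WT library left out. The replicate numbers did not pair the WT libraries, and in bpc roots they gave a weak hint of pairing. The main fit has no block.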

Additional observations from a re-analysis of the deposited data

Results flagged for a closer look

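AT3G25221, an uncharacterized gene, was singled out because its response to BA differed between the genotypes by the interaction term of the limma fit: the bpc response minus the WT response was 3.11 ± 0.36 on the log2(RPKM + 0.5) scale (adjusted p = 0.0198). It was listed at 0.683, 0.817 and 1.89 RPKM in WT vehicle and 0, 0 and 0 in WT BA, and at 0, 0 and 0 in bpc vehicle and 0.816, 0.871 and 1.01 RPKM in bpc BA. Since 2 groups hold zeros throughout, the fitted size depends on the pseudocount. All values of this gene are near the floor, and on a short gene such values can stand for single reads. The difference between the genotypes may therefore rest on a few reads. In 5 of the 15 alternatives with an interaction term 0 genes passed, and at an unadjusted p under 0.05 it was 230 to 786 genes over all of them. It lies outside the rule for named genes and was chosen after its values were seen.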

How the results depend on the processing

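Over 16 alternatives the number of genes raised in WT ranged from 591 to 1025 and the number lowered from 622 to 1156. Leaving out 1 WT library at a time gave 591 to 829 raised and 622 to 944 lowered genes, 348 to 416 raised and 194 to 291 lowered at least 2-fold, and 836 to 999 raised and 826 to 1056 lowered in bpc roots; without WT BA 1, 622 were lowered. The interaction was called for 2 genes with a pseudocount of 0.1, 0 with a pseudocount of 1, 4 with no filter, 0 with a minimum of 2 RPKM, 2 with no trend, and 0 to 1 when a WT library was left out; at an unadjusted p it was 230 to 786 genes over all alternatives. The cause was not tested. Of 109 counts over all genes under alternatives 100 stayed within 1.5 times the main count. Of 3007 values of named genes 2959 kept direction and call, with 48 no longer past the threshold and no change of direction. Most named genes were chosen for keeping their call under all 16 alternatives. This share was thus largely fixed by the choice and does not measure stability. Of 2528 counts within lists 352 moved by over 1.5 times. The replicate numbers did not pair the WT libraries: deviations of same-numbered vehicle and BA libraries correlated at 0.16, -0.28 and -0.25 over genes (0.083, 0.10 and 0.11 in bpc, where each library correlated best with its own number, as a hint from the data). With the replicate block 864 genes were raised and 1156 lowered in WT, 398 and 253 at least 2-fold, 946 and 1011 in bpc, and 1 passed the interaction. Depth limits what can be said of the lowest genes.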

Other observations

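Of the 799 raised genes placed on the chromosomes, 160 (20.0%) had a raised gene next to them among the tested genes, where 7.45% of all 20595 placed genes had a raised neighbour. For the 1002 lowered genes it was 159 (15.9%), where 9.36% of all placed genes had a lowered neighbour. There were 28 runs of 3 or more consecutive tested genes called in the same direction, and the run at the thalianol cluster, with 8 genes, was the longest. A run of 4 raised genes on chromosome 1 held the type-A response regulator gene ARR4 beside ZFP5, and a run of 3 on the same chromosome held ARR15. On chromosome 4 the bHLH genes AT4G25400 and AT4G25410 lay beside GA20OX1, a gibberellin synthesis gene that also rose. The carrier genes ABCG41, ABCG30 and ABCG42 formed a run of 3, as did the P450 genes CYP89A7, CYP89A6 and CYP89A5 on chromosome 1. On chromosome 2 a run of 4 ended in CYP82F1. Tandem copies among them resemble each other and may share reads, and overlapping neighbours may too; this was not tested. The runs were found after the values were seen and are given as a description. Their members were taken from the calls of the main fit and need not belong to the core.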
